A study of Mus musculus with 768 samples.

Results

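Thymocytes of the DN1 gate (CD45+, lineage-negative, CD4-, CD8-, CD25-, CD44+) were compared between Vav-cre; Tcf7fl/fl mice and wild-type (WT) mice. Both sets came from the thymus of C57BL/6 animals aged 6 to 8 weeks, per the labels, which do not say whether the WT mice were littermates or carried the recombinase. The cells were taken by the plate names of the count table and kept where at least 1000 genes were detected, which left 58 of 96 Vav-cre and 86 of 96 WT cells, 144 of the 768 cells of the series. Each cell had its own barcode on a plate, and the counts of a plate's kept cells were summed, so each genotype is 1 library here. DN1 cells of germline Tcf7-/- mice (96 kept cells) served as a further library set against the same WT cells. No animals are named, so it is not known how many mice gave each plate, and no test between genotypes was possible. The Vav promoter drives the recombinase in all blood cells, so stem cells, progenitors and all lymphoid lineages of these mice may carry the deletion.

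TCF1, the product of Tcf7, is a DNA-binding partner of beta-catenin that Notch signals switch on in the earliest thymic progenitors, where it helps to establish the T-cell programme. It is also made by precursors of innate lymphoid cells (ILC), a family of lymphocytes without antigen receptors that includes lymphoid tissue inducer (LTi) cells. The DN1 gate is a mixture: it holds Kit-high early thymic progenitors, natural killer (NK) cells, ILC, unconventional T cells, and some dendritic and B-lineage cells.

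The summed totals were 1547512 counts for the library labelled Vav-cre and 7112702 for WT. A kept cell held a median of 19293 counts (2049 to 147481) with the label Vav-cre and 66572 counts (6256 to 413143) in WT, so the first library is the shallower by far. Levels are given as CPM, the counts of a gene scaled to the total of its summed library, with no gene-length term, so levels of different genes are not compared. A log2 ratio is Vav-cre over WT on the scale of CPM + 10. Intervals are exact 95% intervals for counting error only, since amplified reads are not independent molecules. Where a library has 0 counts, a floor of 3 counts is used for every bound, which is 1.94 CPM in the library labelled Vav-cre and 0.422 CPM in WT. A gene is called measured at 10 CPM or more in either library, and called higher or lower at a 2-fold change. Of 8797 measured genes, 1584 (18%) were at least 2-fold higher and 848 (9.64%) at least 2-fold lower, with a median log2 ratio of 0.13 over all of them. With trimmed-mean (TMM) scaling that median was -0.05, and the higher genes made up 53.6% of the called genes in place of 65.1%. These shares are the background against which the counts of each gene group are read. As a scale, the pair of Lck-cre plates of the CD25-positive gate, the only libraries of the series with the same genotype and gate, had 2.59% of genes higher and 2.8% lower between them. Those plates held 6112207 and 5841167 counts over 91 and 87 kept cells of another gate. They are deeper than the library labelled Vav-cre, so they do not measure the difference between plates for the DN1 pair.

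Tcf7 transcripts were not lower in the cells labelled as Tcf7-deleted. Tcf7 stood at 368 CPM (339 to 400) in the library labelled Vav-cre and at 134 CPM (125 to 143) in WT, a log2 ratio of 1.4, and it was counted in 35 of 58 and 49 of 86 cells. In the CD25-positive gate the same pair of genotypes had 964 and 862 CPM. The germline Tcf7-/- DN1 library had 98.6 CPM. The labels do not say which exons are flanked by loxP sites, and reads from the rest of the transcript would still be counted, so these values do not check the deletion. For that reason the cells are called by their label throughout. Lef1, which encodes the closest relative of TCF1, had 84 CPM with the label Vav-cre and 99.0 CPM in WT.

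**Figure D1:**
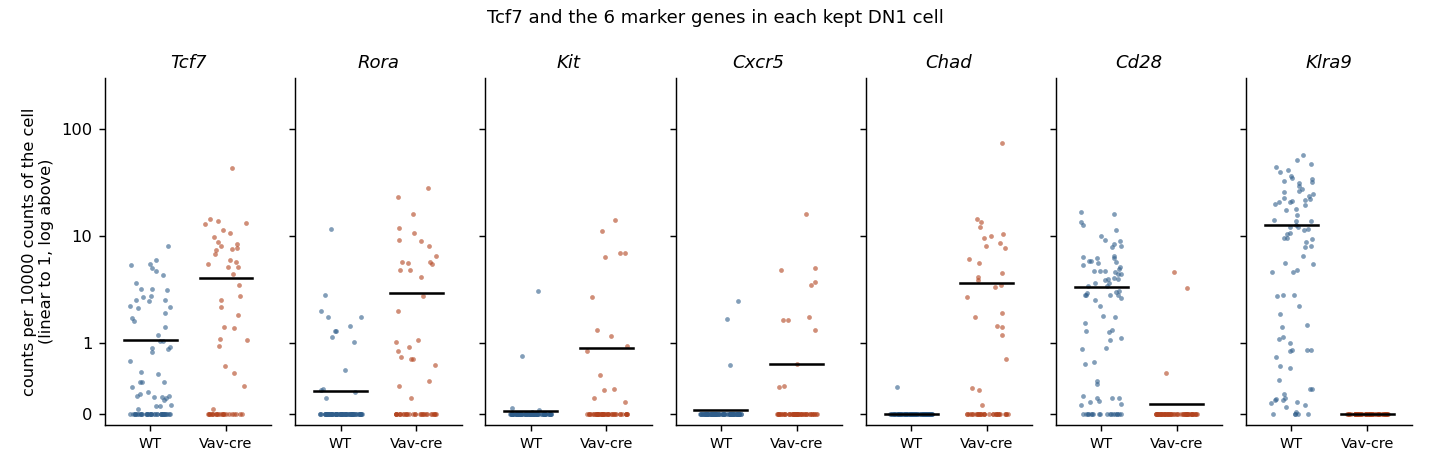
Counts of Tcf7 and of the 6 marker genes per 10000 counts of each cell (vertical axis, linear up to 1 and logarithmic above) in the 86 WT and 58 Vav-cre cells, with 1 point a cell and a bar at the mean over cells. Klra9 was counted in 81 WT cells and in 0 Vav-cre cells, and Chad in 1 WT cell and 27 Vav-cre cells.

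The genes that gave the comparison its outline fell into a group linked to ILC and progenitors, which was high in the library labelled Vav-cre, and a group linked to NK and T cells, which was high in WT. Rora, which encodes a nuclear receptor needed for ILC development, stood at 306 CPM with the label Vav-cre and 29.1 CPM in WT, 10.5-fold higher (8.90 to 12.4). It was counted in 29 of 58 against 15 of 86 cells, and the highest cell had 28 counts per 10000 with the label Vav-cre and 11.6 in WT. Kit, the receptor for stem cell factor on early progenitors, LTi cells and mast cells, had 130 and 10.1 CPM. It was 12.8-fold higher (9.76 to 17) and was counted in 15 against 5 cells. Most cells of both libraries had no Kit count, and a single cell, barcode 91 of the plate, held 41.3% of the counts of the library labelled Vav-cre. Cxcr5, the receptor that draws B cells and LTi cells towards CXCL13, had 63.3 and 4.78 CPM and was found in 12 against 3 cells.

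Chad differed most among the marker genes that were higher. This gene for chondroadherin, a leucine-rich repeat protein best known from cartilage (GRCm38 chr11:94565047-94569127, plus strand), had 373 counts in 27 of 58 cells with the label Vav-cre (241 CPM) and 2 counts in 1 of 86 WT cells (0.28 CPM), a ratio of 857 (236 to 7104). The cell with the most Chad held 22.5% of the counts, so the counts were spread over cells. Of these 27 cells, 23 (85.2%) also had Tcf7 counts, against 60.3% of all cells of that library.

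Cd28 and Klra9 were the marker genes of WT cells. Cd28, the co-stimulatory receptor of T cells, had 404 CPM in WT and 14.2 CPM with the label Vav-cre, 28.4-fold lower (18.7 to 45.4), with counts in 68 of 86 and 3 of 58 cells. Klra9 (GRCm38 chr6:130178675-130193112, minus strand) encodes Ly49I, an inhibitory receptor for MHC class I. WT cells held 0 to 57.3 Klra9 counts per 10000, with a median of 8.37, and 81 of 86 cells had counts, 1348 CPM in all. The 58 cells labelled Vav-cre had 0 counts, which puts Klra9 at least 695-fold lower at a floor of 3 counts in that library. Without thinning, the 5 WT cells without a Klra9 count were the only ones at the Vav-cre level. The WT cells were read more deeply, and after thinning to 10000 counts 59 of 81 WT cells had a Klra9 count. The other thinned WT cells were then at the Vav-cre level too.

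The same contrasts were seen at equal depth. When each cell was thinned to 10000 counts, which left out 9 cells labelled Vav-cre and 5 WT cells as too shallow, Klra9 was found in 0 of 49 and in 72.8% of 81 cells, and Cd28 in 6.12% and 66.7%. In the same thinned cells Chad was found in 46.9% and 0%, Rora in 44.9% and 12.3%, Kit in 24.5% and 2.47%, and Cxcr5 in 14.3% and 2.47%. Without thinning, the shares for Klra9 were 0% and 94.2%, for Cd28 5.17% and 79.1%, for Rora 50% and 17.4%, for Kit 25.9% and 5.81%, and for Cxcr5 20.7% and 3.49%. Tcf7 itself was found in 59.2% of thinned cells labelled Vav-cre and 43.2% of WT cells.

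The germline Tcf7-/- DN1 library stood between the others for all 6 markers, with 148 CPM of Rora, 76.2 of Kit, 45 of Cxcr5, 118 of Chad, 27.9 of Cd28 and 27.9 of Klra9. Both comparisons use the same WT library, so their directions are not independent. The Tcf7-/- plates carry another set of labels than the rest, and a batch could not be separated from the genotype there. On its own scale the Tcf7-/- library had 10.4% of 8574 measured genes at least 2-fold higher than WT and 5.33% lower.

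**Figure D2:**
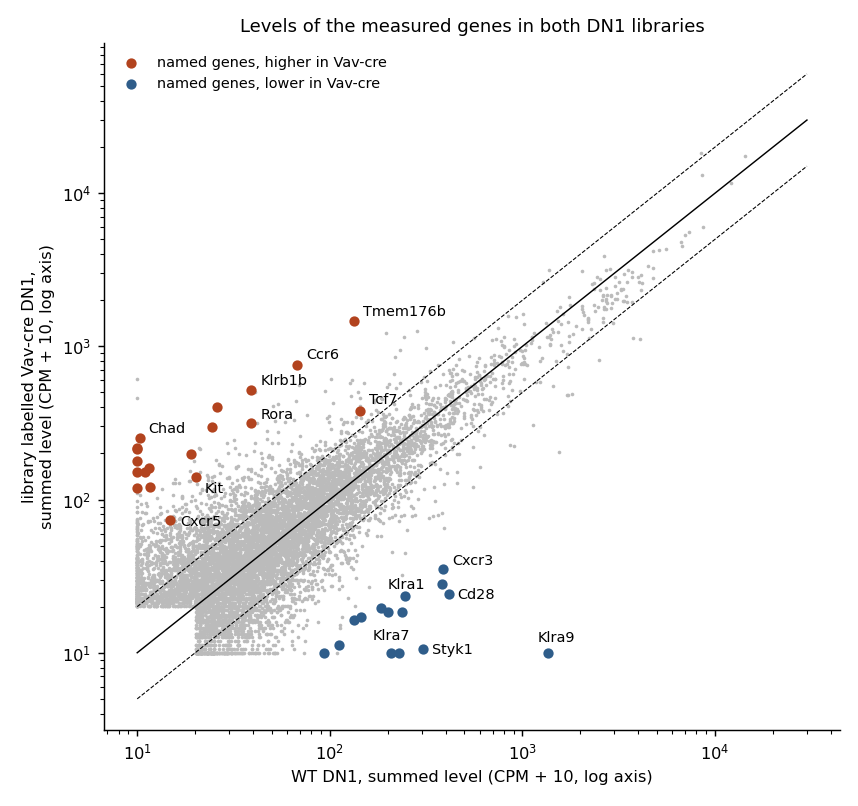
Summed level of each measured gene in WT (horizontal axis) and in the library labelled Vav-cre (vertical axis), as CPM + 10 on log axes, with the line of equal levels and dashed lines at 2-fold. The named genes lie outside the dashed lines, Klra9, Styk1 and Cd28 on the WT side and Chad, Ccr6 and Tmem176b on the Vav-cre side.

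The Ly49 receptors, encoded by the Klra genes of a cluster on chromosome 6, are lectin-like receptors by which NK cells and some T cells sense MHC class I. Of the 9 measured Klra genes, 8 were at least 2-fold lower with the label Vav-cre and 0 higher, with a median log2 ratio of -2.89 (-3.89 with genes at 0 counts set to their bound) against 0.13 over all genes. Klra6, Klra7, Klra8, Klra9, Klra10 and Klra13-ps had 0 counts in that library. Their WT levels were 63.5, 197, 12.1, 1348, 28.8 and 218 CPM. Klra1, for Ly49A, had 18.1 CPM against 370 in WT, 20.5-fold lower (14.1 to 30.9), and Klra3, for Ly49C, 22 against 227 CPM.

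Klra5 was the exception. This gene for Ly49E had 191 CPM (169 to 214) with the label Vav-cre and 258 CPM (246 to 270) in WT, a log2 ratio of -0.42, and 344 CPM in the Tcf7-/- library. Its 295 counts came from 8 cells, of which 4 held 111, 103, 45 and 31 counts. Those 4 cells also held 146, 63, 17 and 16 counts of Klrd1, which encodes the NK receptor chain CD94, and 0, 1, 0 and 0 counts of Tcf7. The first of them (barcode 92) held 33 of the 34 Klra3 counts and 16 of the 28 Klra1 counts of the library. A Klra count of any kind was found in 10 of 58 cells labelled Vav-cre, 85 of 86 WT cells and 77 of 96 Tcf7-/- cells, without thinning.

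**Figure D3:**
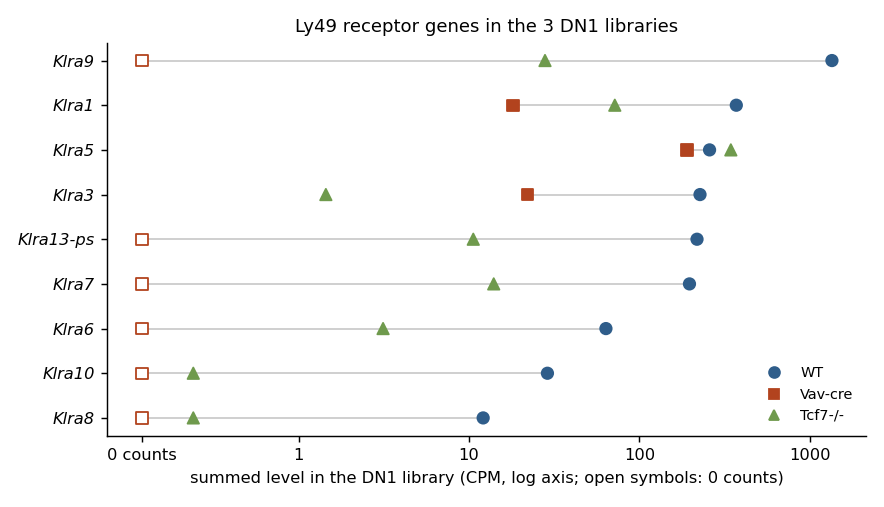
Summed level (CPM, log axis) of the 9 measured Ly49 genes in the WT (circles), Vav-cre (squares) and Tcf7-/- (triangles) DN1 libraries, with open symbols for 0 counts. The Vav-cre symbols lie at 0 counts for 6 genes, and for Klra5 the 3 libraries lie between 191 and 344 CPM.

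Since 8 of the 9 Klra genes were lower and Klra5 was not, their upstream sequences are shown. The 250 bases before the annotated start are shown 5′ to 3′ on the coding strand for Klra9, its closest copy Klra3, the lower gene with the most matches, Klra7, and the exception Klra5, from the RefSeq promoter table of GRCm38.p6. Capitals mark matches on either strand to CTTTGA or CTTTGT, forms of the core that TCF1 and LEF1 bind, which do not overlap each other here.
Klra9 upstream, chr6:130193113-130193362, minus strand: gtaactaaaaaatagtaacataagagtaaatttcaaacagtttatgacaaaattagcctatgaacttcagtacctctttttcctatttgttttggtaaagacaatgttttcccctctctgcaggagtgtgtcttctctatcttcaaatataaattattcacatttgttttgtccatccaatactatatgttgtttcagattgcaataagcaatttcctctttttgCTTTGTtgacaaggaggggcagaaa
Klra3 upstream, chr6:130337627-130337876, minus strand: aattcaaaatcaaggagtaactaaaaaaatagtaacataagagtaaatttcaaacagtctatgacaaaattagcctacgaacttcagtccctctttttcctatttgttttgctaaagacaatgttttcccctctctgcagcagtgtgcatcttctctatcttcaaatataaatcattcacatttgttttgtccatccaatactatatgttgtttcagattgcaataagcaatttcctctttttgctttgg
Klra7 upstream, chr6:130233323-130233572, minus strand: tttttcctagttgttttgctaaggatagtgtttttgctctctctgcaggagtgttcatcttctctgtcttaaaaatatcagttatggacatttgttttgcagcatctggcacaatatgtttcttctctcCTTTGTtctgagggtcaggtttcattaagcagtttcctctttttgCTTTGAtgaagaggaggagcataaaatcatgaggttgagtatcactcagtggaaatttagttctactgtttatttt
Klra5 upstream, chr6:129913225-129913474, minus strand: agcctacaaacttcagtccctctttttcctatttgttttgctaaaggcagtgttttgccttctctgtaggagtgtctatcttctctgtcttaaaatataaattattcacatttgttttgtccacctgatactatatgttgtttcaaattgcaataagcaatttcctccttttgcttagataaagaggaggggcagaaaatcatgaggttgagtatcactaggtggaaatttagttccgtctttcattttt
The match before Klra9 begins 25 bases upstream of its start, and those before this start of Klra7 begin 121 and 76 bases upstream. Klra3 and Klra5 have neither sequence in this window. Of 13 annotated starts of 11 Klra genes, 4 had a match, in Klra6, Klra7 (both starts) and Klra9. Among all 32851 promoters of the table, 13.8% held CTTTGA, 16.5% CTTTGT and 27.6% either, so a match is common, and it describes the letters of the window only. After a global alignment with the Klra9 window, 89.6% of the 250 bases before Klra3 and 69.6% of those before Klra5 were identical to it. Such near copies can share reads, and how reads mapping to several genes were counted is not given in the sources used here, so the split of counts among single Klra genes is uncertain.

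Other NK receptors differed in both directions. Of 21 measured, 7 were lower and 5 higher (median log2 ratio -0.27). Styk1, which encodes a kinase-like membrane protein of NK cells, had 295 CPM in 62 of 86 WT cells and 1 count in 1 cell labelled Vav-cre, a ratio of WT to Vav-cre of 456 (81.8 to 18038). Klrb1c, which encodes NK1.1, stood at 71.1 and 372 CPM (Vav-cre and WT), and Klrd1 at 295 and 1125 CPM. The higher genes included 2 relatives of Klrb1c. Klrb1b, an inhibitory receptor for Clr-b, was 17.5-fold higher (15 to 20.4) at 508 against 29.1 CPM, in 39 of 58 against 10 of 86 cells, and Klrb1f stood at 309 against 48.8 CPM. Tyrobp, a signalling adaptor shared with myeloid cells, was also among them, but 75% of its counts came from 1 cell.

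Of the 20 measured NK transcription factors and effectors, 7 were lower and 5 higher (median -0.31). Tbx21 (T-bet) stood at 12.9 against 114 CPM, Fasl at 10.3 against 126 and Nkg7 at 808 against 2495. Gzmc, another granzyme gene, had the highest ratio of the list (187 and 23.6 CPM), with 89.7% of its counts in 1 cell. The other higher genes, Ccl4, Zeb2, S1pr5 and Ccl3, had 85%, 62.4%, 100% and 100% of their counts in 1 cell each. Without 4 cells that led many higher genes (barcodes 38, 26, 91 and 92), 4 of 19 members were higher and 9 lower (median -0.92). The granzyme and perforin genes showed no common direction: Gzma had 685 and 486 CPM, Gzmb 185 and 240, Prf1 76.2 and 103. Single cells held most of the counts of several of these: 91.1% of the Gzma counts of the library labelled Vav-cre came from the cell with barcode 92 and 98.4% of the Ncr1 counts from another. Ncr1, which encodes NKp46 of conventional NK cells, had 0 counts in the 86 WT cells. Eomes, the other defining factor of those cells, had 4 counts in the 80 WT cells with NK markers.

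Genes of the T-cell receptor complex and its signalling were lower as a group. Of 21 measured, 11 were lower and 0 higher, with a median log2 ratio of -1.17. Cd3d stood at 478 CPM with the label Vav-cre and 1803 in WT, Cd3g at 474 and 1689, and Lck, the proximal kinase, at 217 and 849. Sh2d1a, the adaptor SAP, was 19.2-fold lower (10.4 to 40.2), while the kinase gene Fyn, with 154 and 134 CPM, and Tespa1, with 306 and 261, were among those within 2-fold. Cd3d was found in all 86 WT cells and Cd3e in 84 of them, in a gate labelled lineage-negative. In that library the defining markers of early thymic progenitors were low, with Kit in 5 cells and Cd34 at 0 counts.

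Genes of the T-cell surface and commitment were lower too, 9 of 16 measured, with 2 higher and a median of -1.34. Cd5, Cd6 and Cd40lg, for surface proteins of conventional T cells, were 22.8-fold (13.3 to 43), 19.1-fold (10.6 to 38.3) and 26.9-fold (15.7 to 50.7) lower. Izumo1r, a folate receptor family gene of regulatory and gamma-delta T cells, had 83 CPM in WT and 0 counts with the label Vav-cre, at least 42.8-fold lower. The commitment factor gene Bcl11b was within 2-fold (151 and 185 CPM), whereas Satb1, a chromatin organiser, stood at 118 and 446 CPM. The 2 higher genes rested on single cells: barcode 38 held all 60 Cd8a counts and barcode 26 held 94% of the Tnfrsf4 counts. Of 8 Gimap genes, small GTPases that support lymphocyte survival, 5 were lower and 0 higher (median -1.11), from Gimap4 (215 and 893 CPM) to Gimap8 (74.3 and 86.3 CPM).

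Further genes among the 15 lowest were Cxcr3, the receptor for interferon-induced chemokines, 15-fold lower (11 to 21.2) with counts in 6 of 58 against 73 of 86 cells, and Itga1, the collagen-binding integrin chain CD49a, 17.9-fold lower (10.8 to 32.1). Id3, an inhibitor of E proteins, was 17.4-fold lower (11.4 to 28.2) at 13.6 against 236 CPM, while Id2, its relative in ILC and NK cells, was level at 2808 and 3013 CPM. Churc1, a zinc-binding protein gene, had 2 counts in 1 cell against 724 counts in 42 WT cells (1.29 and 102 CPM). For Churc1 the Tcf7-/- DN1 library was at the WT level, with 103 CPM, and in the CD25-positive gate Churc1 stood at 3.65 CPM with the label Vav-cre and 105 CPM in WT.

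ILC genes stood on the other side. Of 12 measured ILC transcription factors, 6 were higher, among them Rora, Maf, Tox and Ahr, and 2 lower (Ets1 and Zbtb16), with a median log2 ratio of 0.58. Maf stood at 448 and 133 CPM, and Zbtb16, which encodes PLZF of ILC precursors and NKT cells, at 23.3 and 62.1. Gata3 was within 2-fold, at 129 and 170 CPM.

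Of 20 measured ILC and LTi receptors and effectors, 12 were higher and 1 lower, with a median of 1.46. Ccr6, the receptor for CCL20 that marks LTi cells, had 749 against 57.6 CPM, 13-fold higher (11.6 to 14.6), in 33 of 58 against 10 of 86 cells. Il2ra had 169 against 9.70 CPM and was counted in 21 of 58 cells labelled Vav-cre, although the gate is labelled CD25-. Other higher members were Nrp1 (222 and 19.4 CPM), Il1r1 (107 and 21.7), Il23r (38.8 and 6.61) and Tnfsf11 (53.6 and 10.3), which encodes RANKL. Il7r was abundant in both libraries (3098 and 2026 CPM), and the effector genes Il22, Il17a, Il5 and Areg had 0 counts in both. Itgae, the integrin chain CD103, was the lower member, at 86.6 and 215 CPM.

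Several other genes among the 15 highest have no well-known place in the ILC programme. Upp1 (uridine phosphorylase), Bicd1 (a dynein adaptor), Hacd4 (a fatty acid elongation enzyme), Batf3 (an AP-1 family factor of dendritic cells) and P2ry1 (an ADP receptor) had 0 counts in the 86 WT cells and 322, 313, 259, 220 and 169 counts with the label Vav-cre. Taken at the floor, they were at least 493-, 480-, 397-, 337- and 259-fold higher. Each was spread over 15 to 30 cells, and no cell held more than 40.6% of the counts. The rule by which the 15 highest genes were chosen set a minimum share of cells with counts. It also set a maximum share of counts in a single cell, so such a spread was a condition of the choice and not a separate result. Serpina3g, an intracellular protease inhibitor, was 24.3-fold higher (19.8 to 29.9) in 34 of 58 against 9 of 86 cells, and Igf1r, the receptor for insulin-like growth factor 1, was 20.1-fold higher (16.1 to 25.1) in 35 against 9 cells. Tmem176b, which encodes a membrane protein, had 1449 CPM against 123 in WT. Car2 (a carbonic anhydrase), Tns4 (a tensin) and Olfr1258 (an olfactory receptor gene) each had counts in 1 WT cell and in 17, 16 and 19 cells labelled Vav-cre. Ccr9, the thymus and gut homing receptor, had 187 and 9 CPM. Its shares of cells were 22.4% and 17.4% without thinning, and 16.3% and 4.94% in cells thinned to 10000 counts.

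**Figure D4:**
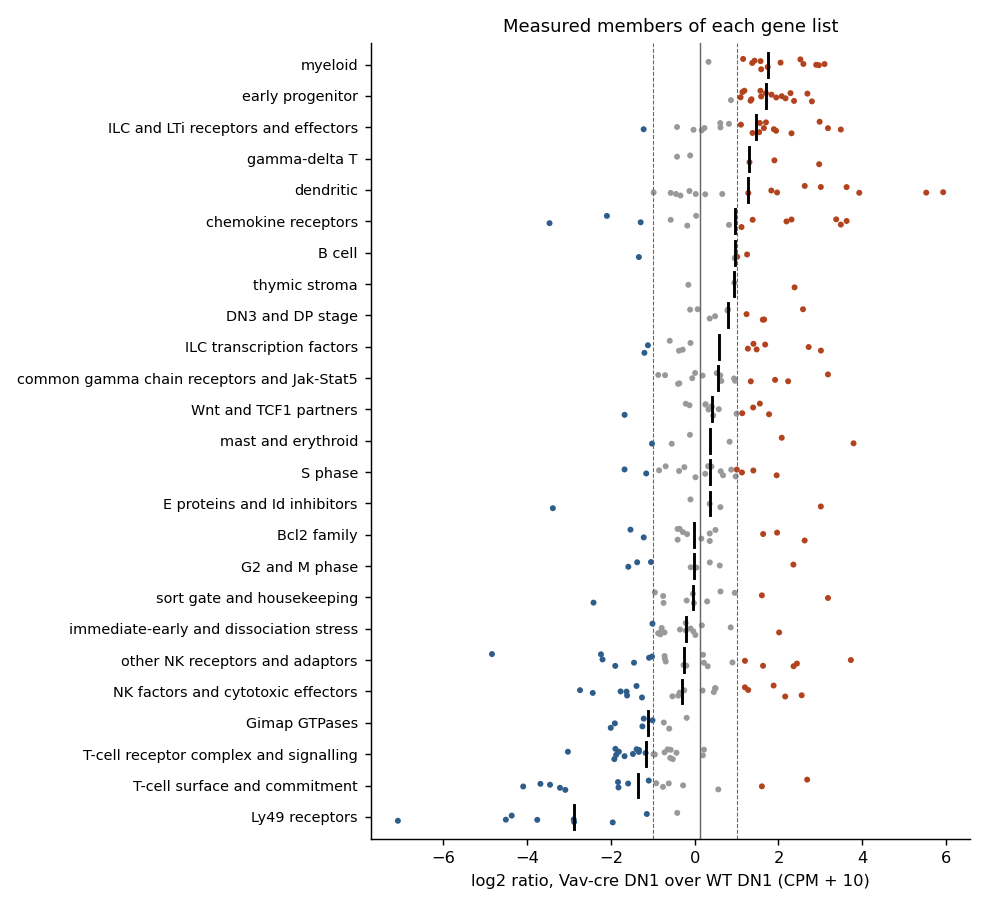
Log2 ratio (horizontal axis, Vav-cre over WT on CPM + 10) of each measured member of 25 gene lists, with a black bar at the median of the list, dashed lines at 2-fold and a grey line at the median of all genes (0.13). The Ly49 list has the lowest median, -2.89, and the myeloid and early progenitor lists the highest, 1.74 and 1.70.

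Early progenitor genes were higher in 16 of 17 measured members with 0 lower (median 1.70), in the summed library. Cd34 had 38.8 CPM and 0 WT counts, Flt3, a cytokine receptor of multipotent progenitors, 65.3 and 6.75 CPM, and Meis1, a stem cell homeobox gene, 58.2 and 0.56 CPM. Few cells carried these counts. Cd34 was counted in 4 cells, Flt3 in 8, Meis1 in 7 and Erg in 4, and the cell with barcode 91 held 45% of the Cd34, 63.3% of the Meis1, 81% of the Erg and 57.3% of the Mycn counts. Lmo2, a transcriptional co-factor gene, was the member that was not called (17.4 and 5.06 CPM). Cd93, by contrast, was found in 16 of 58 against 2 of 86 cells and Lmo4 in 53.4% against 47.7%.

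Single cells held most of the counts of many higher genes. In the library labelled Vav-cre, 672 (42.4%) of the 1584 higher genes had over 50% of their counts in 1 cell, against 108 (12.7%) of the 848 lower genes in WT. Of the higher genes, 513 were counted in at least 20% of the cells. The 4 cells that led the most of these genes (barcodes 38, 26, 91 and 92) led 367 of them and held 26.8% of all counts of the library. The cell with barcode 38 held 96.4% of Cd209a, 97.6% of Cd209d and 92.9% of Csf1r counts, genes of dendritic and mononuclear phagocytes. Barcode 26 held 90.6% of the Ccr7 and 95% of the Fscn1 and 95.1% of the Ccl22 counts, genes of mature dendritic cells. Barcode 91 held 87.5% of the Myb counts besides those of Meis1 and Erg. Barcode 92 held 48.6% of the counts of the S phase list and 37.1% of those of the G2 and M phase list, with 67.1% of the Top2a counts. These 4 were chosen after their values were seen.

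Without those 4 cells, 1484 of 8651 measured genes were higher and 1043 lower. Of the 1584 genes, 1081 were also among the higher ones then, and 689 of the 848 were among the lower. The dendritic list went from a median of 1.28 to -0.20, and from 9 higher of 17 measured to 5 higher and 4 lower of 16. S phase genes went from 4 higher of 18 to 0 of 16, and early progenitor genes from 16 of 17 to 11 of 16. The ILC lists together had 17 of 32 higher in place of 18 of 32, the Ly49 list 8 of 9 lower both times, and the T-cell lists together 20 of 35 lower in place of 20 of 37.

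Genes of other blood cells differed between the libraries too. Of 13 measured myeloid genes, 12 were higher with the label Vav-cre and 0 lower, and the summed level of the list was 677 CPM against 55.1 in WT and 254 in Tcf7-/-. Csf2ra, the GM-CSF receptor chain, was the member that was not called (16.2 and 10.8 CPM). The defining macrophage markers Adgre1 and Fcgr1 were at 0 counts in both DN1 libraries compared, and Itgam and Cebpa at 0 with the label Vav-cre. S100a8, a granulocyte gene, had 132 counts spread over 32 of 58 cells, with 39 in the highest, and was counted in 1 of 86 WT cells. The dendritic list summed to 6797 against 3284 CPM, with Clec9a at 0 counts, but the cells with barcodes 38 and 26 held 51.8% and 19.1% of its counts, and without them it summed to 2296 CPM, below WT. The myeloid list without those cells summed to 493 CPM, still above WT. The B-cell list summed to 463 against 213 CPM, with Blnk at 0, the mast and erythroid list to 293 against 135 CPM, with Gata1 at 0, and the thymic stroma list to 152 against 43 CPM, with Foxn1 at 0. Car2 alone gave 150 of the 293 CPM and 1.55 of the 135 CPM. Of the 6 measured members of that list, Car2 and Cpa3 were higher, Hbb-bs, Hba-a1 and Hbb-bt within 2-fold and Hba-a2 lower. Pecam1 held 155 of the 235 counts of the stroma list with the label Vav-cre. Cells with at least 10 counts of markers of other blood cells made up 16.3% of thinned cells labelled Vav-cre and 11.1% of thinned WT cells. Without thinning the shares were 32.8% and 32.6%. Among the 39 cells labelled Vav-cre and 58 WT cells with fewer than 10 such counts without thinning, 9 of 11 measured early progenitor genes were higher (median 1.33). In all kept cells it was 16 of 17 (median 1.70).

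Some further groups were close to level, and others were mixed or higher. The housekeeping genes Actb (11693 and 12050 CPM) and Gapdh (1090 and 1105) were level. Tbp, another one, was lower (log2 ratio -2.42), with 3 counts in the library labelled Vav-cre. Of the list of TCF1 and its Wnt partners, 4 of 15 were higher (Tcf7 itself, Pygo2, Fzd1 and Tle3) and 1, the co-repressor gene Tle4, lower. A single cell held 90% of the Fzd1 counts, and another 51.5% of the Tle3 counts. Of 16 measured genes of the common gamma chain receptors and their Jak-Stat5 pathway, 4 were higher (Il2ra, Socs2, Cish and Il15ra) and 0 lower. A single cell held 63.4% of the Il15ra counts, and another 59.6% of the Cish counts. Stress and immediate-early genes had 1 member higher and 1 lower of 15, and Bcl2 family genes 3 and 2 of 14. Chemokine receptors were mixed, with 7 of 14 higher, Ccr7 and Ccr6 the most, and 3 lower, of which Cxcr3 was the lowest. Their median log2 ratio was 0.97, and 1 cell held 90.6% of the Ccr7 counts of the library labelled Vav-cre. Of 5 genes linked to gamma-delta T cells 3 were higher (Cd163l1 at 412 and 43.9 CPM, Blk at 251 and 59.9, Gpr183 at 311 and 120). Of 10 genes of the DN3 and DP stages 4 were higher (Myb, Hes1, Dtx1 and Endou), with Rag1 at 0 counts with the label Vav-cre. The higher genes of these 2 lists are 60% and 40% of the measured members, against 18% of all measured genes, with median log2 ratios of 1.31 and 0.79. Single cells held 87.5% of the Myb, 65.7% of the Hes1 and 95.2% of the Endou counts, and 32.8% of the Dtx1 counts. Rag1, Rag2 and Ptcra were not measured. Without the 4 cells named above, 4 of 9 DN3 and DP genes were higher and 1 lower.

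Cells were also classed by markers, for NK cells Klrb1c, Klrd1, Klrk1, Klre1 and Ncr1, and for ILC or LTi cells a list of 6 that includes Rora, Il7r, Cxcr5, Il1r1 and Tnfsf11. A cell was counted for a class where at least 2 of its markers had at least 2 counts each. After thinning to 10000 counts, 11 of 49 cells labelled Vav-cre had NK markers (22.4%, 11.8 to 36.6), against 62 of 81 WT cells (76.5%, 65.8 to 85.2) and 26 of 73 Tcf7-/- cells (35.6%, 24.7 to 47.7). ILC or LTi markers were found in 37 of 49 (75.5%, 61.1 to 86.7), 9 of 81 (11.1%, 5.21 to 20) and 33 of 73 cells (45.2%). These intervals cover the counting of cells within a plate and say nothing of the spread between mice. Rora and Cxcr5 are themselves among the genes that outlined the comparison. Without thinning the shares with NK markers were 20.7% and 93%, and those with ILC or LTi markers 77.6% and 24.4%. Of the 80 WT cells with NK markers then, 80 had Cd3d, 79 Cd3g and 78 Cd3e counts, and 0 had Ncr1 counts. Of the 12 such cells labelled Vav-cre, 9 had Cd3d, 10 Cd3g and 8 Cd3e counts, and 1 had Ncr1 counts. The NK class thus does not separate NK cells from T cells with NK receptors. Of the 38 cells labelled Vav-cre with ILC or LTi but not NK markers, without thinning, 18 had Cd3d, 16 Cd3g and 13 Cd3e counts. All 4 WT cells of that class had counts of each of these genes. The ILC or LTi class is thus a set of marker counts and is not limited to cells without CD3 counts. In sums over such a mixture, fewer cells of a type and less RNA per cell cannot be told apart.

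**Figure D5:**
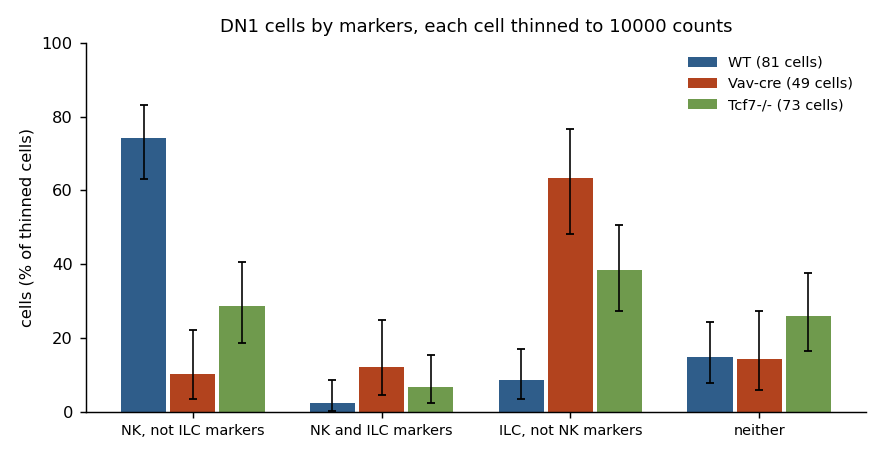
Share of thinned DN1 cells (vertical axis, percent) with markers of NK cells, of ILC or LTi cells, of both or of neither in the WT, Vav-cre and Tcf7-/- libraries, with exact 95% intervals for counting error as error bars. Cells with NK but not ILC markers made up 74.1% of WT and 10.2% of Vav-cre cells, and cells with ILC but not NK markers 8.64% and 63.3%.

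Within the cells that had NK markers, 12 labelled Vav-cre and 80 WT without thinning, many contrasts had the same direction. Klra9 had 0 counts in the 12 cells and 9583 in the 80, and the log2 ratios of Styk1, Cd5 and Cd28 were -4.61, -3.38 and -2.41. Chad (5.39), Car2 (4.88) and Serpina3g (4.46) were higher there as well. Other genes were not: Ccr6 (-1.17, from 5 and 329 counts) and Kit (-0.65, from 1 and 72 counts) had ratios below 0. The fold interval of Kit, 0.00757 to 1.74, includes no change. Single WT cells held 220 of the 410 Ccr6 counts and 57 of the 72 Kit counts of the WT library. Ratios without those WT cells were not computed, so these signs may rest on them. Hacd4 and Ccr9 were within 2-fold. Klra5 had a log2 ratio of 1.76 and Gzma of 2.67, in 5 and 7 of the 12 cells. A single cell, barcode 92, held 966 of the 1023 Gzma counts, and without it the ratio of Gzma was -0.72, from 310 and 517 CPM, while that of Klra5 was 1.81. The ratios of Chad, Car2, Serpina3g, Styk1, Cd5 and Cd28 had the same sign without that cell. The 12 cells hold 306188 counts in all, and the classes of both libraries need not be the same kind of cell. Of the cells with ILC or LTi but not NK markers, 38 were labelled Vav-cre and 4 were WT, too few for a comparison.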

How the data were processed

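RNA counts of single thymocytes, deposited per gene and cell, were analysed for 2 of the 8 plates, with the germline Tcf7-/- DN1 plate beside them. Per the labels' protocols, cDNA was made with a modified STRT protocol for multiplexed single cells, while the same text also names Smart-seq2 for the libraries. Per the submitters' processing notes, TopHat2 2.1.1 and HTSeq were used with mm10 (GRCm38). Collapsing of molecular identifiers, strand and annotation are not given in the sources used here. The authors deposited raw counts, in whole numbers with no normalization, and log2 values, log2(TPM/10 + 1), which were used as an alternative. Of 23154 entries, 27 held a date in place of a symbol (0.141% of counts) and were dropped.

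Counts were summed over cells in which 1000 or more genes were detected, and scaled to CPM with Python 3.11.15, numpy 2.4.6 and pandas 2.3.3. Fold changes are log2 ratios with a pseudocount of 10 CPM. With 1 library a genotype and no named animals, no test was run and cells were not used as replicates. Intervals (scipy 1.17.1) are exact Poisson, conditional binomial or Clopper-Pearson at 95%. No 2 kept cells held identical counts. No doublet caller was run, and how single cells were isolated is not given in the sources used here. Named genes are the 6 markers, Tcf7, and the 15 highest and 15 lowest by log2 ratio among genes with at least 50 CPM in a library, counts in at least 20% of the cells of the higher library and at most 50% of the counts there in 1 cell. The rule passes over Xist, Y-linked genes and unnamed gene models. For most lists described at length, the members with the largest and smallest ratio are named. Other examples were chosen after their values were seen. The members and the 25 lists (421 genes, 13 not matched) were chosen with earlier results of these data known. Alternatives changed the cell filter, pseudocount, weighting, thinning, scaling (TMM factors from edgeR) and the cells included. Gene positions are from GENCODE vM21. The scripts were tested on simulated data. The values of 1 list member are not reported here.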

Additional observations from a re-analysis of the deposited data

How the results depend on the processing

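No paired analysis was possible because the numbers in the labels are cell barcodes and each genotype is 1 library. The named genes were chosen for large ratios, so that they kept a 2-fold difference under the alternatives is no sign of stability. In cells with NK markers alone, 4 of the 18 higher ones (Kit, Hacd4, Ccr6 and Ccr9) did not, and Kit (-0.65, from 1 count) and Ccr6 (-1.17) had the opposite sign. The cause of these changes was not tested. Single WT cells held 57 of the 72 Kit and 220 of the 410 Ccr6 counts of the WT library, and ratios without them were not computed. In those cells the Gzma ratio, 2.67, was -0.72 without the cell with barcode 92. The log2 ratio of the dendritic list's summed level, 1.05, was -0.51 without the cells with barcodes 38 and 26 and -0.36 without 4 cells. These cells were chosen after seeing the data. Genes at least 2-fold higher numbered 1584 of 8797 measured, but 295 with a pseudocount of 50 CPM, 872 of 7329 without the highest cell of each gene and 763 of 4371 (17.5%) when measured at 50 CPM. Those lower numbered 848, but 1323 in cells with at least 2000 detected genes, 1311 and 108 with pseudocounts of 1 and 50 CPM, 1397 without cells carrying other blood cell markers, 2654 in cells with NK markers and 332 of 4371 (7.6%) when measured at 50 CPM. The higher genes made up 65.1% of called genes, but 44% without the highest cell, 53.6% with TMM scaling and 35.8% in cells with NK markers. ILC members higher (18 of 32) were 10 of 32 with a pseudocount of 50 CPM and 9 of 28 in cells with NK markers, and T-cell members lower (20 of 37) were 13 of 37 with that pseudocount. Early progenitor members higher (16 of 17) were 7 of 17 with a pseudocount of 50 CPM, 9 of 11 without cells carrying other blood cell markers, 2 of 8 in cells with NK markers and 10 of 10 when measured at 50 CPM. The Tcf7 log2 ratio, 1.4, was 0.61 with at least 2000 detected genes, 1.19 with a pseudocount of 50 CPM, 1.85 with cells weighted equally, 1.86 thinned, 1.20 with TMM scaling, 1.87 without other blood cell markers, 0.53 in cells with NK markers, 1.86 from the deposited log2 values and 1.83 without the 4 cells. Thinned to 5000 counts, Tcf7 was found in 42.9% of Vav-cre and 25.6% of WT cells. Without thinning, WT shares were 57% for Tcf7, 79.1% for Cd28 and 94.2% for Klra9. With 58 and 86 cells and 1 library each, differences between mice and between plates cannot be told apart from genotype.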
